A study of Mus musculus with 8 samples.

Results

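The genes described here are 10 brakes on inflammatory signalling that act on mRNA or on ubiquitin chains. They were chosen by name from the 54532 genes of the deposited count table: Zfp36, Zfp36l1, Zfp36l2, Zc3h12a, Zc3h12c, Rc3h1, Tnfaip3, Tnip1, Cyld and Irak3. These genes and the lists of related genes below were chosen with earlier results of these data known, so their counts of called genes are not independent of that choice. All 10 were among the 12234 genes that passed the filter on low counts and were tested. The RNA came from whole cultures of mouse macrophages grown out of bone marrow (bone marrow-derived macrophages, BMDMs), and the labels give no strain, age or genotype. There were 4 groups of 2 libraries, numbered 1 and 3 in the labels. Cells labelled IL-4 then LPS received interleukin 4 (IL-4, a type 2 cytokine) at 20 ng/ml for 24 h, were washed, and received lipopolysaccharide (LPS, a bacterial ligand of Tlr4) at 100 ng/ml for 4 h. LPS cells received 100 ng/ml LPS for 4 h, IL-4 cells received 20 ng/ml IL-4 for 24 h, and control cells received neither. The title of the series concerns trained immunity, so the comparison of LPS after IL-4 with LPS alone bears on whether an earlier IL-4 exposure altered these brakes. The sources used here do not state whether IL-4 cells were also washed and kept for longer.

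These genes work at separate steps of the same negative feedback. Zfp36 (tristetraprolin), Zfp36l1 and Zfp36l2 are zinc-finger proteins that bind AU-rich elements in the 3′ UTR of cytokine mRNAs and recruit the deadenylase complex, so that the mRNA is degraded. Zc3h12a and Zc3h12c are regnases, RNases that cut stem-loops in such mRNAs, and Rc3h1 (roquin) binds similar stem-loops and recruits deadenylases. Tnfaip3 edits and removes ubiquitin chains on adaptors upstream of NF-kB, Tnip1 is a ubiquitin-binding partner of Tnfaip3, and Cyld removes linear and lysine-linked chains from the same adaptors. Irak3 (IRAK-M) is a pseudokinase of the IRAK family that restrains Toll-like receptor signalling through Myd88. Several are themselves known targets of NF-kB.

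Libraries held 7924932 to 9431852 counts. All 12 macrophage markers were tested, and they summed to 19275 to 30886 CPM in the 8 libraries. CPM, the usual unit of counts relative to library size, were scaled by TMM factors (trimmed mean of M-values). These factors lay between 0.787 and 0.866 in the 4 LPS-treated libraries and between 1.17 and 1.25 in the other 4. Replicate 1 libraries held 2936 to 4465 reads of Xist and replicate 3 libraries held 0, whereas reads of Ddx3y were 0 in replicate 1 and 543 to 643 in replicate 3. The libraries of every group therefore differed in sex, and values within replicate 1 and within replicate 3 are given beside the main comparisons. Of the markers of other cells, those of dendritic cells summed to 272 to 294 CPM after IL-4 then LPS, 45.0 to 48.8 CPM after LPS, 4.26 to 7.22 CPM after IL-4 and 1.56 to 2.07 CPM in control cells, with none of 9 at 0 throughout. Stromal markers summed to 30.01 to 47.6, 22.1 to 49.4, 6.07 to 6.33 and 4.94 to 7.69 CPM in the same order of groups, with none of 10 at 0 throughout. The mast cell, basophil and eosinophil list summed to 61.0 to 90.0, 53.3 to 79.3, 0.0892 to 0.905 and 0.173 to 0.494 CPM, with 7 of its 10 genes, Mcpt8 and Fcer1a among them, at 0 in every library. The T, B and NK cell list summed to 166 to 186, 180.4 to 222, 372 to 414 and 381 to 548 CPM, and 6 of its 11 genes were at 0 throughout, Cd3e, Cd3d, Cd3g, Cd79a and Ncr1 among them. Neutrophil markers summed to 14.0 to 49.5, 11.7 to 31.3, 22.2 to 58.8 and 21.6 to 44.0 CPM, with Elane, Ctsg and Ly6g of 12 at 0. Erythroid markers did not pass 0.552 CPM in any library, and 3 of the 7, Hbb-bs and Hbb-bt among them, were at 0. The filter on low counts passed 4 of the 9 dendritic cell and 5 of the 10 stromal genes. It passed 1 of 10 genes of the mast cell, basophil and eosinophil list and 2 of 11 of the T, B and NK cell list. Of 12 neutrophil genes it passed 2, and of 7 erythroid genes 0, so a sum can rest on few genes. The part of these marker changes in the results below was not tested, and in bulk RNA fewer cells of a type and less RNA per cell cannot be told apart.

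The AU-rich nonamer bound by Zfp36 proteins is shown first, because its letters also stand in the 3′ UTRs of the Zfp36 family itself. The sites below are the DNA form of the mRNA strand from GENCODE M21 transcripts (GRCm38, the build of the files, mm10), taken in each gene's coding transcript with the longest coding sequence, with 1 copy of TTATTTATT in capitals in each. Each lies in the 3′ UTR of its gene.
Zfp36, chr7:28376951-28376979, minus strand: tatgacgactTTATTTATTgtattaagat
Zfp36l1, chr12:80108167-80108195, minus strand: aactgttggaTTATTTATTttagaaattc
Zfp36l2, chr17:84184914-84184942, minus strand: actatttaacTTATTTATTatcttgtgaa
Rc3h1, chr1:160970043-160970071, plus strand: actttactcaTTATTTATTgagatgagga
Tnf, chr17:35199678-35199706, minus strand: tatttattatTTATTTATTatttatttat
Tnf, the classic cytokine target of Zfp36, is shown for contrast, and its 3′ UTR held 5 overlapping copies against 1 copy in each of these 4 brakes. The printed Tnf stretch holds further copies beside the 1 in capitals.

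The nonamer was found, on the mRNA strand only, in 5 of the 10 genes (50%), namely the brakes shown above and Tnfaip3. It was found in 36.7% of 30 target mRNAs listed for Zfp36, regnase or roquin proteins, and in 7.2% of 11076 tested coding genes. The 3′ UTRs differ in length, with a median of 1821.5 bases in the 10 genes, 651 bases in the target list and 981.5 bases in all tested genes. The shorter pentamer ATTTA, which lies inside the nonamer, had a median density of 2.77 per kb in the 10 genes, 5.32 per kb in the target list and 1.26 per kb in all tested genes. Within the 10 genes the density ran from 4.90 per kb in Zfp36l1 and 3.88 per kb in Zfp36 to 0.937 per kb in Irak3, and Tnip1 held none in 752 bases. The match of a motif is a description of these letters and does not show that a protein bound there.

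The members' start regions were searched for the NF-kB consensus on both strands, in RefSeq windows of 250 bases before to 50 bases after each annotated start (GRCm38.p6). A total of 12 windows matched 9 of the genes by symbol, and Zfp36l2 is named only. The consensus was found in 3 of the 12 windows (25%), against 5.27% of 11647 windows of tested genes and 4.51% of all 32851 windows. The 30-base sites are printed because they belong to the 3 ubiquitin genes, on the strand of the gene, with the consensus in capitals. The first Tnfaip3 site lies in an intron of a longer GENCODE transcript, 125 bases before the RefSeq start. The second begins 12 bases before that start and lies in an exon of a GENCODE transcript. The Tnip1 and Cyld sites lie upstream of their genes, 58 and 155 bases before the start, and the Tnip1 site holds 3 overlapping matches.
Tnfaip3, chr10:19015516-19015545, minus strand: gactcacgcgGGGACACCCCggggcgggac
Tnfaip3, chr10:19015403-19015432, minus strand: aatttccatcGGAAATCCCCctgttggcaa
Tnip1, chr11:54962978-54963007, minus strand: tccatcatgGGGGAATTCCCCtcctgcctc
Cyld, chr8:88696863-88696892, plus strand: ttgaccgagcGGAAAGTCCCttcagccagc
No NF-kB match stood in the windows of Zfp36, Zfp36l1, Zc3h12a, Zc3h12c, Rc3h1 or Irak3, which says only that these letters are not in those windows. The AP-1 motif TGANTCA was found in windows of Zfp36l1, Rc3h1 and Tnfaip3 (25% of 12 windows, against 5.21% of windows of tested genes). In Tnfaip3 it begins 136 bases before the start, upstream of the first NF-kB site. The STAT6 motif, TTC and GAA with 4 of any base between them, was found in 1 window, that of Tnfaip3 (8.33%, against 5.59% of windows of tested genes). The CArG box was found in 1 window, that of Zfp36, 58 bases before the start, against 1.21% of windows of tested genes.

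**Figure D1:**
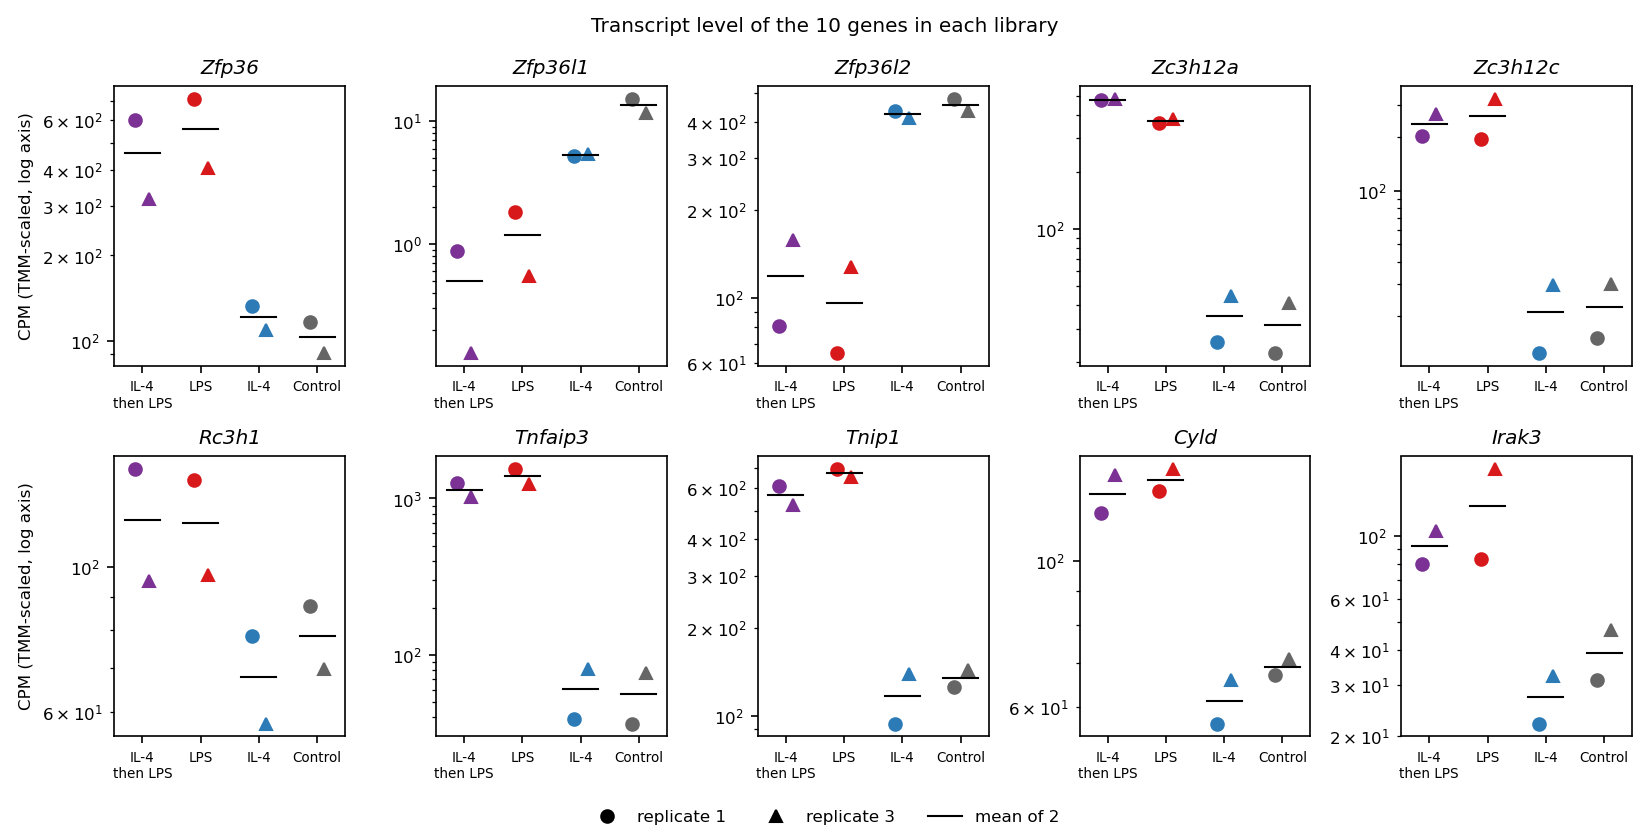
Transcript level (CPM, TMM-scaled, log axis) of the 10 genes in each of the 8 libraries, by group. Circles are replicate 1, triangles replicate 3 and lines the mean of 2. Tnfaip3 stands between 1015 and 1537 CPM in the 4 LPS-treated libraries and between 36.5 and 81.6 CPM in the other 4, and Zfp36l2 runs the other way.

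LPS changed 9 of the 10 genes in cells without IL-4. In that comparison, LPS against control, 7 genes rose and 2 fell at an adjusted p under 0.05. The test was edgeR's quasi-likelihood test, with p adjusted by Benjamini-Hochberg over the 12234 tested genes. Of all tested genes, 40.4% were called, 21.8% as higher and 18.6% as lower, so that calls were common. The median log2 fold change was 2.01 over the 10 genes and -0.01 over all tested genes. After IL-4, the same LPS dose changed all 10. Comparing IL-4 then LPS with IL-4, 8 were higher and 2 lower, where 39.3% of tested genes were called, 20.7% as higher and 18.6% as lower. Here the median was 1.84 over the 10 genes and -0.04 over all tested genes. The libraries of the compared groups did not overlap for any of the 10 genes in either comparison, which also held for 72.6% of tested genes in LPS against control and for 71.7% of them after IL-4. These 2 comparisons share no library.

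The scaling of the libraries matters to these counts. Scaling by library size alone moved the median over all tested genes to -0.62 in LPS against control and to -0.56 after IL-4, and upper-quartile factors moved it to -0.28 in each. With library size alone, 1549 genes were called higher and 5744 lower in LPS against control, and with upper-quartile factors 2044 higher and 3542 lower, against 2663 higher and 2279 lower with TMM factors. With LPS after IL-4 the calls were 1546 higher and 5320 lower with library size alone and 1924 higher and 3426 lower with upper-quartile factors, against 2537 higher and 2271 lower with TMM factors. Each of the 10 genes kept its direction and its call with these scalings and with RLE factors, except Rc3h1. Fold changes below are with TMM factors, relative to a median near 0.

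In the Zfp36 family, LPS exchanged the leading member. Zfp36 had 602 and 317 CPM after IL-4 then LPS, 716 and 408 CPM after LPS, 133 and 109 CPM after IL-4, and 116 and 90.4 CPM in control cells. All 4 LPS-treated libraries were above all 4 others, and replicate 1 was the higher library in every group. Zfp36 rose with LPS by a log2 fold change of 2.44 ± 0.37 (SE, adjusted p = 0.00148), a 5.44-fold difference. After IL-4 it rose by 1.92 ± 0.36 (adjusted p = 0.0045).

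Zfp36l2, a paralog that also promotes decay of AU-rich mRNAs, moved in the opposite direction. It had 80.7 and 158 CPM after IL-4 then LPS, 65.0 and 128 CPM after LPS, 435 and 412 CPM after IL-4, and 479 and 435 CPM in control cells. The highest LPS-treated library stood below the lowest of the other 4. Zfp36l2 fell by 2.25 ± 0.38 on the log2 scale with LPS (adjusted p = 0.00254) and by 1.83 ± 0.37 with LPS after IL-4 (adjusted p = 0.00653). LPS-treated cells thus held 0.211 times the control level and, after IL-4, 0.282 times the IL-4 level.

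Zfp36l1, the third paralog, was the lowest of the 10 genes in LPS-treated cells. It had 0.874 and 0.130 CPM after IL-4 then LPS, 1.82 and 0.552 CPM after LPS, 5.26 and 5.43 CPM after IL-4, and 15.3 and 11.7 CPM in control cells. These levels rest on 6 and 1 reads after IL-4 then LPS, 13 and 4 after LPS, 59 and 60 after IL-4, and 177 and 118 in control cells. All LPS-treated libraries were below all others, and the IL-4 libraries stood between the LPS-treated and the control libraries. Zfp36l1 fell by 3.50 ± 0.57 with LPS (adjusted p = 0.00206) and by 3.43 ± 0.67 with LPS after IL-4 (adjusted p = 0.00524). The size depends on single libraries, since the call held but the LPS value ran from -4.58 without LPS replicate 1 to -2.88 without LPS replicate 3. With LPS after IL-4 it ran from -5.23 without IL-4 then LPS replicate 1 to -2.59 without replicate 3 of that group.

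To set levels of different genes side by side, they were divided by the union of all annotated exons. This union can be longer than the mRNA. For Zfp36 it was 3470 bases and covered the whole gene from start to end, so its level per kb may be understated. Per kb of exon, Zfp36 made up 77.6 ± 15.0% of the family's summed level after IL-4 then LPS, 84.0 ± 10.7% after LPS, 22.2 ± 1.74% after IL-4 and 18.1 ± 1.54% in control cells (SD, n = 2 each). Zfp36l2 made up 22.3 ± 15.1%, 15.8 ± 10.8%, 76.7 ± 1.65% and 79.2 ± 1.82% in the same order of groups. Zfp36 was therefore the larger share in each of the 4 LPS-treated libraries, at 67.0% to 91.6%, and the smaller in each of the other 4, at 17.0% to 23.4%. These shares are ratios within a library and do not depend on how libraries were scaled, but they do depend on the lengths used. With TMM factors, the summed level of the family was 166 ± 42.7 CPM per kb after IL-4 then LPS, 190 ± 50.5 after LPS, 157 ± 9.40 after IL-4 and 164 ± 15.0 in control cells, with overlapping libraries in every pair of groups. Unlike the shares, these sums depend on the scaling. The factors were 0.787 to 0.866 in LPS-treated libraries and 1.17 to 1.25 in the others. Without them the sums would be lower in LPS-treated libraries and higher in the others, and the overlap was not checked under other scalings. No test was made of the shares or sums, because 2 libraries a group are too few for an exact permutation test.

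**Figure D2:**
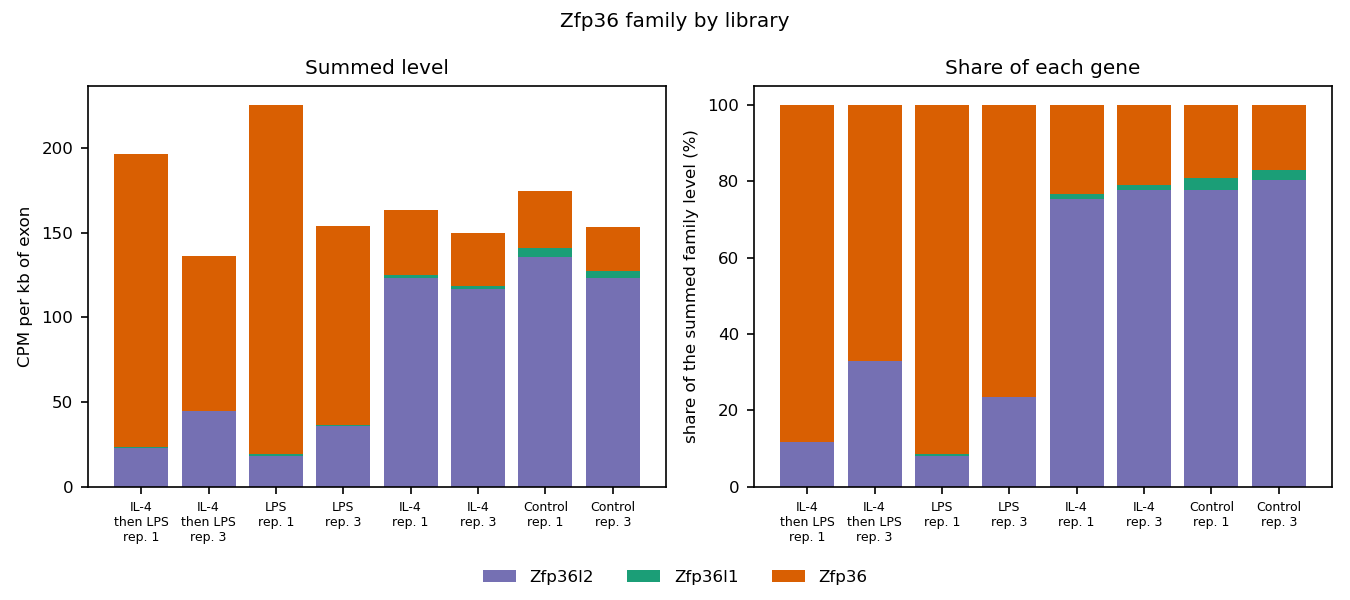
Zfp36 family in the 8 libraries, as summed level (left, TMM-scaled CPM per kb of exon) and as the share of each gene in that sum (right, %). Zfp36 holds 67.0% to 91.6% of the sum in the LPS-treated libraries and 17.0% to 23.4% in the others, and Zfp36l1 never passes 2.94%.

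The RNases rose with LPS in both settings. Zc3h12a had 476 and 486 CPM after IL-4 then LPS, 361 and 382 CPM after LPS, 25.5 and 44.3 CPM after IL-4, and 22.3 and 40.7 CPM in control cells. It rose by 3.56 ± 0.35 with LPS (adjusted p = 0.00015), an 11.8-fold difference with a 95% interval of 6.78 to 20.6, and by 3.78 ± 0.35 with LPS after IL-4 (adjusted p = 0.000123). The 4 LPS-treated libraries lay close together, and both IL-4 then LPS libraries were above both LPS libraries.

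Zc3h12c, a less studied regnase, had 202 and 266 CPM after IL-4 then LPS, 194 and 325 CPM after LPS, 12.4 and 29.9 CPM after IL-4, and 15.04 and 30.03 CPM in control cells. It rose by 3.53 ± 0.50 with LPS (adjusted p = 0.00106) and by 3.47 ± 0.50 with LPS after IL-4 (adjusted p = 0.00121). Its replicate 3 libraries were above replicate 1 in every group, and the second value was 4.26 without IL-4 replicate 3. Per kb of exon, Zc3h12a made up 83.1 ± 2.56% of the summed level of this pair after IL-4 then LPS, 77.6 ± 5.62% after LPS, 80.4 ± 3.63% after IL-4 and 77.1 ± 1.12% in control cells. The mean share thus stayed between 77.1% and 83.1% across groups, while the pair's summed level was 201 ± 8.92, 167 ± 18.6, 15.2 ± 6.41 and 14.2 ± 6.06 CPM per kb.

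Rc3h1 changed least. It had 141 and 95.1 CPM after IL-4 then LPS, 136 and 97.3 CPM after LPS, 78.3 and 57.5 CPM after IL-4, and 87.1 and 69.7 CPM in control cells. Its log2 fold change was 0.57 ± 0.26 with LPS, which did not pass the test (adjusted p = 0.114, 95% interval of the fold 0.981 to 2.26). Without the filter on low counts it was called, at 0.53 (adjusted p = 0.0232). With the replicate number as a block it was called as well, at 0.56 (adjusted p = 0.00155). The labels name no pairing, but by Xist and Ddx3y reads the replicate number also separates the sexes in every group. It rose by 0.80 ± 0.26 with LPS after IL-4 (adjusted p = 0.0423). The rise was not called without IL-4 replicate 3 (0.61, adjusted p = 0.179), without IL-4 then LPS replicate 1 (0.49, adjusted p = 0.23) or with library size alone (0.28), and with library size alone the LPS value was -0.028. A direct test of the difference between these responses gave 0.23 ± 0.37 (adjusted p = 1).

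Among the ubiquitin genes Tnfaip3 showed the largest fold. It had 1250.2 and 1015 CPM after IL-4 then LPS, 1537 and 1229 CPM after LPS, 39.3 and 81.6 CPM after IL-4, and 36.5 and 77.1 CPM in control cells. It rose by 4.61 ± 0.48 with LPS (adjusted p = 0.000205), a 24.4-fold difference with a 95% interval of 11.4 to 52.3. After IL-4 it rose by 4.23 ± 0.47 (adjusted p = 0.000308). Replicate 1 libraries without LPS were lower than those of replicate 3, and the values were 5.21 without control replicate 3 and 4.87 without IL-4 replicate 3. By mean CPM, Tnfaip3 ranked 118 among all tested genes after IL-4 then LPS and 96 after LPS, against 2840 after IL-4 and 3039 in control cells.

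Tnip1, its ubiquitin-binding partner, had a higher level per kb without LPS. It had 609 and 523 CPM after IL-4 then LPS, 693 and 655 CPM after LPS, 94.2 and 139 CPM after IL-4, and 126 and 144 CPM in control cells. It rose by 2.32 ± 0.21 with LPS (adjusted p = 0.000109) and by 2.28 ± 0.21 with LPS after IL-4 (adjusted p = 0.000128). Per kb, Tnfaip3 made up 49.4 ± 0.977% of the summed level of these partners after IL-4 then LPS and 49.98 ± 2.94% after LPS, against 19.7 ± 3.80% after IL-4 and 16.6 ± 5.89% in control cells. By this measure their levels were near equal in LPS-treated libraries, and that of Tnip1 was higher in each of the others. The divisors, the unions of all annotated exons, were 7226 bases for Tnfaip3 and 3539 bases for Tnip1. The near equality depends on these lengths, which can be longer than the mRNAs.

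Cyld had the smallest called fold with LPS. It had 118 and 135 CPM after IL-4 then LPS, 128 and 138 CPM after LPS, 56.7 and 66.0 CPM after IL-4, and 67.2 and 71.0 CPM in control cells. It rose by 0.94 ± 0.14 with LPS (adjusted p = 0.00117) and by 1.04 ± 0.14 with LPS after IL-4 (adjusted p = 0.000744), and its SE was the smallest of the 10. With library size alone the LPS value was 0.34, still called.

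Irak3, the brake nearest the receptor, had 79.5 and 104 CPM after IL-4 then LPS, 82.9 and 171 CPM after LPS, 22.0 and 32.4 CPM after IL-4, and 31.2 and 46.8 CPM in control cells. Its LPS libraries were far apart, replicate 3 being the higher, and neither overlapped with the control libraries. It rose by 1.71 ± 0.37 with LPS (adjusted p = 0.00824) and by 1.76 ± 0.38 with LPS after IL-4 (adjusted p = 0.00792). The call was lost without control replicate 1 (1.38, adjusted p = 0.0682) and, after IL-4, without IL-4 replicate 1 (1.505, adjusted p = 0.0572), and the LPS value was 1.09 without LPS replicate 3.

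Within replicate 1 and within replicate 3, taken apart, all 10 genes moved in the same direction as in the pooled comparison, in both LPS comparisons. With LPS, the log2 ratio of Tnfaip3 was 5.40 in replicate 1 and 4.00 in replicate 3, and that of Zfp36l2 was -2.88 and -1.77. For Cyld these ratios were 0.93 and 0.95, and for Rc3h1 0.64 and 0.48. With LPS after IL-4, the ratio of Tnfaip3 was 4.99 and 3.64, that of Zfp36l2 -2.43 and -1.38, and that of Rc3h1 0.85 and 0.73. These within-replicate ratios are single pairs of libraries and carry no test.

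**Figure D3:**
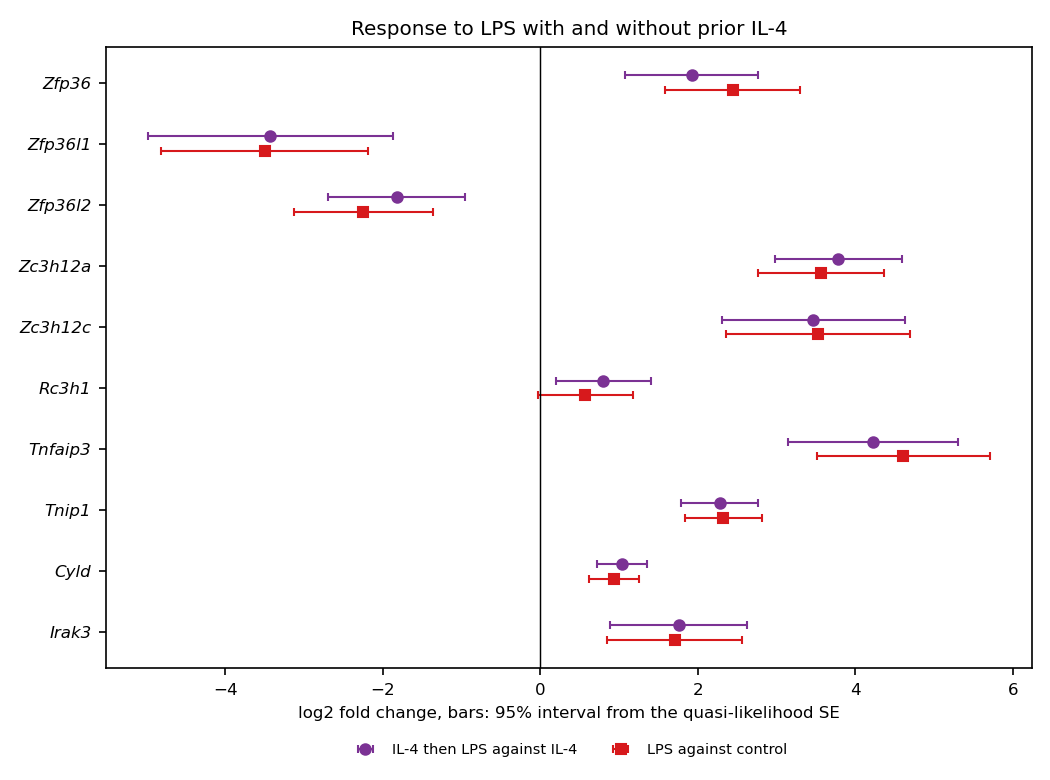
Log2 fold change with LPS of the 10 genes, after IL-4 (IL-4 then LPS against IL-4, purple circles) and without IL-4 (LPS against control, red squares), with 95% intervals from the quasi-likelihood SE. The paired intervals overlap for every gene, and those of Zfp36l1 and Zfp36l2 lie below 0.

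The order of the genes by level changed with LPS. The order within a group depends on the exon lengths used, which can be longer than the mRNAs. Per kb of exon, control cells were led by Zfp36l2 at 129 ± 8.89 CPM per kb, followed by Tnip1 at 38.1 ± 3.64, Zfp36 at 29.8 ± 5.24, Zc3h12a at 10.9 ± 4.51, Irak3 at 10.6 ± 3.005, Tnfaip3 at 7.86 ± 3.97, Rc3h1 at 6.94 ± 1.09, Cyld at 5.49 ± 0.217, Zfp36l1 at 4.51 ± 0.862 and Zc3h12c at 3.29 ± 1.55 (SD, n = 2 each). Mean ± SD of neighbours in this order did not overlap for Zfp36l2 and Tnip1, for Zfp36 and Zc3h12a, and for Rc3h1 and Cyld, and the other neighbours were within this spread. In LPS cells Tnfaip3 at 191 ± 30.1, Tnip1 at 190.5 ± 7.71, Zfp36 at 162 ± 62.8 and Zc3h12a at 129 ± 5.04 CPM per kb led, each within the spread of its neighbour, and Zc3h12a stood clear of the next gene. Zc3h12c at 37.9 ± 13.5, Irak3 at 34.6 ± 17.0 and Zfp36l2 at 27.3 ± 12.5 followed, each within the spread of its neighbour, and Zfp36l2 stood clear of Cyld. Cyld at 10.5 ± 0.566 and Rc3h1 at 10.3 ± 2.43 did not differ beyond it, and Zfp36l1 at 0.396 ± 0.299 was last and clear of both.

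After IL-4 then LPS the same 4 genes led, with Zc3h12a at 167 ± 2.27, Tnip1 at 160.0 ± 17.3, Tnfaip3 at 157 ± 23.0 and Zfp36 at 132 ± 58.1 CPM per kb, each within the spread of its neighbour and Zfp36 clear of the next gene. Zc3h12c at 34.2 ± 6.66, Zfp36l2 at 33.8 ± 15.5 and Irak3 at 25.01 ± 4.77 came next and were within that spread of one another in this order. Irak3 stood clear of Rc3h1 at 10.5 ± 2.89, which was within the spread of Cyld at 10.05 ± 0.944, and Zfp36l1 at 0.168 ± 0.176 was last and clear of Cyld. IL-4 cells were again led by Zfp36l2 at 120.0 ± 4.62 CPM per kb, clear of Zfp36 at 34.9 ± 4.82, with Tnip1 at 32.9 ± 8.92 within the spread of Zfp36 and clear of the next gene. Zc3h12a at 12.1 ± 4.61, Tnfaip3 at 8.37 ± 4.14, Irak3 at 7.40 ± 1.9995 and Rc3h1 at 6.004 ± 1.30 followed. Cyld at 4.88 ± 0.523, Zc3h12c at 3.09 ± 1.81 and Zfp36l1 at 1.79 ± 0.0408 were lowest, and from Zc3h12a downward each gene was within the spread of its neighbour.

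Prior IL-4 gave no called change of these brakes under LPS. In IL-4 then LPS against LPS, 0 of the 10 genes passed the test and DESeq2 called 0, where 0.0654% of all tested genes were called, and 0 had an unadjusted p under 0.05, against 8.5% of all tested genes. Libraries of the groups did not overlap for 2 of the 10, against 36.4% of tested genes. Zc3h12a was above LPS in both IL-4 then LPS libraries, with a log2 fold change of 0.37 (95% interval -0.34 to 1.09, adjusted p = 0.801). Tnip1 was below, at -0.25 (interval -0.72 to 0.21, adjusted p = 0.787). This comparison shares its LPS libraries with LPS against control.

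The intervals differed in width between the genes. Cyld, the most precise, had a fold of 0.954 with a 95% interval of 0.768 to 1.18. The interval of the fold was 0.608 to 1.16 for Tnip1, 0.788 to 2.13 for Zc3h12a, 0.425 to 1.58 for Tnfaip3, 0.465 to 1.44 for Zfp36, and 0.668 to 1.53 for Rc3h1. For Irak3 it was 0.405 to 1.29, for Zfp36l2 0.688 to 2.24 and for Zc3h12c 0.438 to 1.86. Zfp36l1, on its few reads, had a fold of 0.416 with an interval of 0.113 to 1.53. Its log2 value of -1.26 was -3.06 without IL-4 then LPS replicate 1, -0.43 without replicate 3 of that group, -0.18 without LPS replicate 1 and -1.88 without LPS replicate 3, and its ratio was -1.06 within replicate 1 and -2.09 within replicate 3. Within replicates, Zfp36 was lower by 0.25 and 0.36 on the log2 scale, Tnfaip3 by 0.30 and 0.28, and Tnip1 by 0.19 and 0.32, and Zc3h12a was higher by 0.40 and 0.35. Irak3 differed by -0.06 in replicate 1 and by -0.72 in replicate 3, so its mean of -0.47 came mainly from 1 pair. In these same cells dendritic cell markers summed to 272 to 294 CPM after IL-4 then LPS and to 45.0 to 48.8 CPM after LPS. None of the 9 genes was at 0 in every library, but only 4 were tested and 1 was called higher. The part of this difference was not tested.

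IL-4 alone likewise gave no called change. In IL-4 against control 0 of the 10 genes passed the test and DESeq2 called 0, where 0.0654% of all tested genes were called, and 1 gene had an unadjusted p under 0.05, against 7.29% of all tested genes. That gene was Zfp36l1, at 5.26 and 5.43 CPM after IL-4 and 15.3 and 11.7 CPM in control cells. Its log2 fold change was -1.33 ± 0.46 (adjusted p = 0.548, 95% interval -2.41 to -0.26), and the ratio was -1.54 within replicate 1 and -1.10 within replicate 3. Without the filter on low counts the same value was called (adjusted p = 0.0106), and its adjusted p ran from 0.0106 to 1 over all alternatives. Libraries did not overlap for 2 of the 10, Zfp36l1 and Cyld, against 38.6% of tested genes. Cyld was at -0.17 ± 0.14 (interval -0.49 to 0.14, adjusted p = 0.85). This comparison shares its control libraries with LPS against control.

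For the other genes the interval of the IL-4 fold at rest was 0.663 to 2.07 for Zfp36, 0.519 to 1.66 for Zfp36l2, 0.663 to 1.86 for Zc3h12a and 0.438 to 2.02 for Zc3h12c. It was 0.571 to 1.31 for Rc3h1, 0.547 to 2.08 for Tnfaip3, 0.625 to 1.20 for Tnip1 and 0.385 to 1.27 for Irak3.

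**Figure D4:**
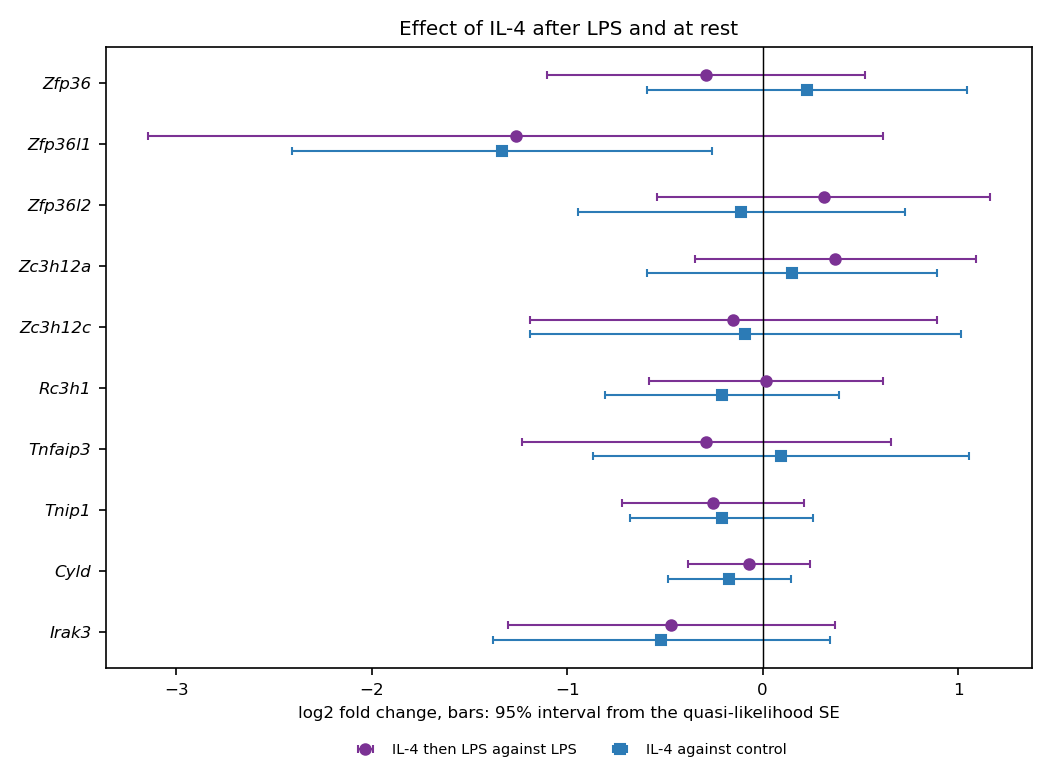
Log2 fold change with IL-4 of the 10 genes, under LPS (IL-4 then LPS against LPS, purple circles) and at rest (IL-4 against control, blue squares), with 95% intervals from the quasi-likelihood SE. Every interval crosses 0 except that of Zfp36l1 at rest, -2.41 to -0.26, whose adjusted p was 0.548.

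The response to LPS after IL-4 was also compared directly with that in cells without IL-4. The difference of the log2 fold changes was called for 0 of the 10 genes, DESeq2 called 0, and 0% of all tested genes were called. At an unadjusted p under 0.05 the count was also 0, against 2.63% of all tested genes. The most precise difference was that of Cyld, at 0.10 ± 0.19, a ratio of responses of 1.07 with a 95% interval of 0.789 to 1.46. For Tnip1 the ratio was 0.970 (0.614 to 1.53), for Zc3h12a 1.17 (0.571 to 2.39), for Tnfaip3 0.768 (0.302 to 1.96) and for Zfp36 0.698 (0.313 to 1.56). For Zfp36l2 it was 1.34 (0.585 to 3.06), for Irak3 1.04 (0.452 to 2.37), for Zc3h12c 0.959 (0.335 to 2.75) and for Rc3h1 1.17 (0.650 to 2.10). The interval of Zfp36l1, 0.109 to 10.1, was too wide to bound a difference. Its SE of 1.41 was derived from a log2 value of 0.07 on few reads, so this width is itself uncertain. The SEs of the responses were 0.57 with LPS and 0.67 with LPS after IL-4.

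The enzymes that carry out decay had a median change near 0 with LPS, while Dcp2 and Xrn1 rose. Of 28 tested genes for deadenylation and decapping, 7 were called higher and 4 lower with LPS, and 6 higher and 4 lower with LPS after IL-4, with a median log2 fold change of 0.03 in each. Over all tested genes, 21.8% were called higher and 18.6% lower with LPS, and 20.7% and 18.6% with LPS after IL-4. The calls of this list were near these shares, which also stand beside the counts of the following lists. The balance of higher and lower calls in this list depended on the scaling. Library size alone gave 4 higher and 17 lower with LPS and 4 higher and 13 lower with LPS after IL-4, and upper-quartile factors gave 5 higher and 9 lower, and 6 higher and 8 lower. Every gene named from this and the following lists kept its direction and its call with library size alone, upper-quartile factors and RLE factors, in the comparison for which its value is printed. Dcp2, the decapping enzyme, averaged 383 ± 6.42 CPM after IL-4 then LPS and 51.3 ± 5.22 CPM after IL-4, and 420.1 ± 39.7 CPM after LPS and 58.4 ± 0.549 CPM in control cells. It rose by 2.90 with LPS after IL-4 (adjusted p = 1.29e-05) and by 2.85 with LPS (adjusted p = 1.3e-05). Xrn1, the exonuclease that degrades decapped mRNA, rose by 2.01 and 1.95 in the same order, and Dcp1a, the activator of Dcp2, rose by 1.26 with LPS. Tob1 and Tob2, adaptors of the deadenylase complex, fell, with log2 fold changes of -1.98 and -0.90 with LPS after IL-4 and -2.20 and -1.06 with LPS.

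Other RNA-binding regulators were tested in 17 of 19 cases, with 8 higher and 1 lower with LPS after IL-4 and 7 higher and 1 lower with LPS, and medians of 0.45 and 0.44. With library size alone these calls were 3 higher and 6 lower, and 3 higher and 7 lower, and with upper-quartile factors 5 higher and 3 lower in each. Arid5a, which protects inflammatory mRNAs from regnase, rose by 4.19 with LPS after IL-4 and by 3.73 with LPS. Mapkapk2, the kinase that inactivates Zfp36 by phosphorylation, averaged 2000 ± 439 CPM after IL-4 then LPS and 367 ± 199 CPM after IL-4, and 2367 ± 867 CPM after LPS and 367 ± 216 CPM in control cells. It rose by 2.45 (adjusted p = 0.00853) and 2.69 (adjusted p = 0.00551) in the same order. N4bp1 rose by 2.69 and 2.52 and stands in both this list and the next. Zc3h12d, a further regnase, fell by 1.57 with LPS after IL-4, and Tia1, a translational silencer of AU-rich mRNAs, fell by 0.84 with LPS.

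Of 17 partners in ubiquitin editing, 8 were called higher and 1 lower with LPS after IL-4, and 9 higher and 1 lower with LPS, with medians of 0.63 and 0.90. With library size alone these calls were 6 higher and 5 lower in each, and with upper-quartile factors 8 higher and 4 lower with LPS after IL-4. Usp18, which removes the ubiquitin-like Isg15, averaged 790.5 ± 39.8 CPM after IL-4 then LPS and 16.8 ± 8.95 CPM after IL-4, and 919 ± 69.2 CPM after LPS and 20.98 ± 14.8 CPM in control cells. It rose by 5.56 and 5.46. Tnip3, a relative of Tnip1, rose by 3.13 with LPS, and Otud1, a deubiquitinase, rose by 2.59 with LPS after IL-4 and by 3.10 with LPS. Tnfaip8l2, a negative regulator of innate signalling, fell, with log2 fold changes of -1.12 with LPS after IL-4 and -0.85 with LPS.

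Ubiquitin ligases and adaptors upstream of NF-kB, on which Tnfaip3 and Cyld act, were tested in 24 of 25 cases. With LPS after IL-4, 13 were called higher and 2 lower, and with LPS 14 higher and 2 lower, with medians of 0.67 and 0.46. With library size alone 11 were higher and 5 lower, and 11 higher and 6 lower. Ripk2, a kinase modified by linear ubiquitin, rose by 4.76 and 4.94, Traf1 by 4.93 and 4.45, and Malt1, a protease that cleaves Tnfaip3, by 3.75 and 4.14. Peli2 (-2.55 and -2.44) and Tab1 (-0.77 and -0.89) fell. In the IRAK and Myd88 list, 13 of 14 genes were tested. There 3 were called higher and 3 lower with LPS after IL-4, and 6 higher and 3 lower with LPS, with medians of 0.18 and 0.53. The LPS calls were 3 higher and 5 lower with library size alone and 3 higher and 3 lower with upper-quartile factors. Cd14 rose by 2.98 and 2.49, Myd88 by 2.56 and 2.60, and Irak2, a relative of Irak3, by 1.72 and 1.91. Inpp5d, an inositol phosphatase that dampens signalling, fell, with log2 fold changes of -3.01 and -2.91. The kinases Irak4 and Irak1 also fell, at -0.66 and -0.49 with LPS after IL-4 and -0.60 and -0.43 with LPS.

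Most mRNAs known as targets of these decay factors were called higher with LPS. Of 30 tested targets of 32, 24 were called higher and 2 lower with LPS after IL-4, and 22 higher and 0 lower with LPS, by edgeR's quasi-likelihood test. Over all tested genes, 20.7% were called higher and 18.6% lower with LPS after IL-4, and 21.8% and 18.6% with LPS. The median log2 fold change of the targets was 6.43 and 5.99, or 5.46 and 5.07 with groups that held no reads set to 3 reads in total. Tnf rose by 6.58 ± 1.07 with LPS after IL-4 (adjusted p = 0.0022) and by 6.36 ± 1.06 with LPS (adjusted p = 0.00237). Summed over the libraries of a group, Il6 held 14512 reads after IL-4 then LPS and 2 after IL-4, a ratio of 11077 with a counting interval of 3066 to 91478. It held 6983 reads after LPS and 1 in control cells, a ratio of 10521 with an interval of 1888 to 415602. Il1a held 13323 reads after IL-4 then LPS and 3 after IL-4, a ratio of 6780 (2319 to 32880), and Il12b held 8103 reads after LPS and 1 in control cells, a ratio of 12208 (2190 to 482251). Il1b held 36889 reads after IL-4 then LPS and 6 after IL-4 and rose by 13.15, and Ptgs2 rose by 10.40 with LPS. Myc and Plau fell with LPS after IL-4, at -1.54 and -1.08.

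In the comparisons of IL-4 then LPS against LPS and of IL-4 against control, and in the difference of responses, 0 genes of each of the 6 lists passed edgeR's quasi-likelihood test. DESeq2 called 6 target mRNAs higher and 1 gene of the IRAK and Myd88 list lower in IL-4 then LPS against LPS, and 1 target higher, 1 target lower and 1 gene of the IRAK and Myd88 list lower in IL-4 against control. For the difference it called 1 target higher. In IL-4 then LPS against LPS the count at an unadjusted p under 0.05 was 13 of 30 for the target list, 0 of 28 for deadenylation and decapping and 0 of the 10 brakes, and 1 to 3 for the other lists, against 8.5% of all tested genes. The median log2 fold change of the target list there was 0.56, against -0.03 over all tested genes and -0.20 over the 10 brakes. In IL-4 against control the unadjusted count was 9 of 30 for the target list and 1 to 4 for the other lists, against 7.29% of all tested genes, and the target median was 0. For the difference it was 5 of 30 for the target list and 0 to 1 for the others, against 2.63% of all tested genes. These are counts and medians of lists without a test of the lists.

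**Figure D5:**
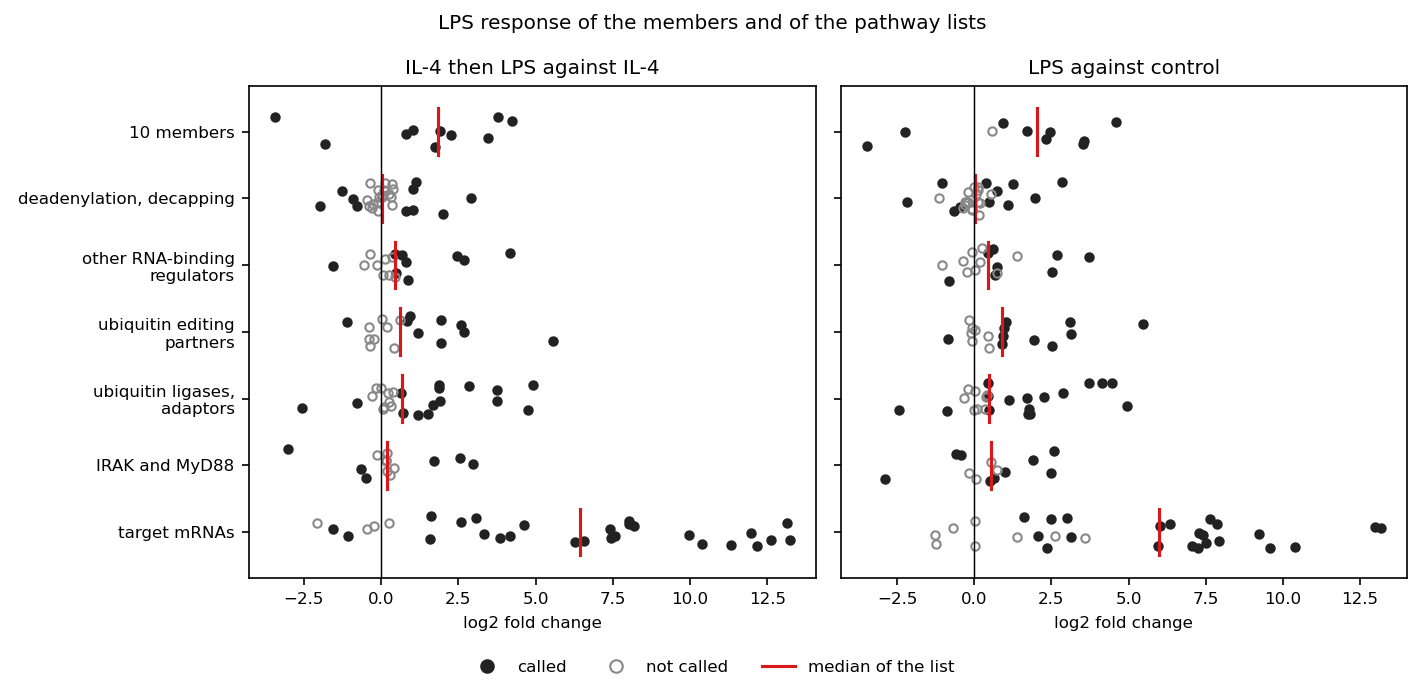
Log2 fold change with LPS of the 10 genes and of the 6 lists, after IL-4 (left, IL-4 then LPS against IL-4) and without IL-4 (right, LPS against control). Filled points were called at an adjusted p under 0.05, red lines are list medians, and points of target mRNAs with no or few reads before LPS depend on the fit's prior count. Target mRNAs have a median of 6.43 and 5.99, and deadenylation and decapping genes 0.03 in each.

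Genes with the pattern most like each brake were ranked by Pearson's r of log2 CPM over the 8 libraries, which share 4 libraries with and 4 without LPS, so that r is high for any gene that responds to LPS. For Tnfaip3 these were Cxcl10, Cmpk2 and Fnbp1l (r = 0.999 for the first), and 1265 genes passed an r of 0.95. For Tnip1 they were Gm5431, Ddx60 and Ifi209 (r = 0.999), for Cyld Gm43814, Rela and Ddx24 (r = 0.998), and for Zc3h12a Cd40, Irf1 and Oasl1 (r = 0.999). Zc3h12c was most like H2-Q4, H2-M3 and Ogfr (r = 0.998), of which the first is a histocompatibility gene with near-identical copies. The other brakes had fewer genes past an r of 0.95, namely 476 for Zfp36, 260 for Zfp36l1, 233 for Irak3, 232 for Zfp36l2 and 64 for Rc3h1. Zfp36 was most like Fam133b, Kif5c and G530011O06Rik (r = 0.995), Zfp36l2 most like Flcn, Zfp971 and Wdr81 (r = 0.998), and Zfp36l1 most like Plxnc1, Enc1 and Cnot10 (r = 0.991). Irak3 was most like Heatr6, Nek7 and Pdpn (r = 0.993), and for Rc3h1 Gprc5c and Dnm1l were among the 3 most alike (r = 0.992 and 0.991). These likenesses are descriptions of the 8 libraries.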

How the data were processed

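RNA was extracted with Trizol and sequenced from BMDMs in 4 groups of 2 libraries, per the labels' protocols. The authors deposited raw read counts per Ensembl gene, and HISAT2, StringTie and HTSeq with mm10 were used per the submitters' processing notes, without versions. Strandedness, read length and the handling of reads shared by genes are not stated in the sources used here, so overlapping and antisense genes could not be told apart. A further 6 count columns of that table match no label and were not used. Start, end and exon length of all 10 genes equal those of GENCODE M21.

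Genes were kept by filterByExpr and fitted with 1 mean per group over all 8 libraries (4 residual degrees of freedom) in edgeR 4.0.16 with limma 3.58.1 and R 4.3.3, by the quasi-likelihood test with TMM factors and Benjamini-Hochberg adjustment over 12234 genes. The SE is the absolute log2 fold change over the square root of F, and intervals are at 95%. CPM per kb uses the deposited exon length, the union of all annotated exons of a gene, which can be longer than its mRNA. DESeq2 1.42.0 and other scalings, filters, samples and a replicate block were alternatives. The fit was run on simulated data in which few genes changed, equally in each direction, and no sex difference was put in. The dependence on scaling and the sex difference of these libraries were not covered by it. Reads carry no molecular identifiers, so floors (3 reads over a group) and intervals of read ratios (exact binomial) cover counting error only. Nothing says that the libraries of a group are separate animals except their sex chromosome reads. The p-values rest on the spread between libraries of the same group, pooled over the 4 groups and moderated across genes. That spread includes any difference between the sexes.

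Named were all 10 genes, from each list the 3 called genes with the largest change per direction and comparison, and the 3 genes most like each brake, and a few of these items are not reported here. Tnf, shown for its 3′ UTR, and the pentamer densities were chosen after values were seen. The members and lists were chosen with earlier results of these data known.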

Additional observations from a re-analysis of the deposited data

How the results depend on the processing

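With RLE factors, upper-quartile factors, library size alone, DESeq2, no filter, the replicate block, each library left out and only the groups compared, the count of called genes stayed between 8 and 10 in both LPS comparisons and at 0 in IL-4 then LPS against LPS and in the difference of responses. In IL-4 against control it was 0 except with no filter on low counts, where it was 1 (Zfp36l1). Left-out libraries gave 8 to 9 called genes in LPS against control, 9 to 10 when LPS followed IL-4, and 0 to 0 elsewhere. Rc3h1 with LPS turned to -0.028 with library size alone and was called with no filter (0.53, adjusted p = 0.0232) and under the replicate block (0.56, adjusted p = 0.00155). After IL-4 its call was lost with upper-quartile factors (0.55, adjusted p = 0.138) and with only the groups compared (0.80, adjusted p = 0.0504). Same-numbered libraries share a sex by their Xist and Ddx3y reads and deviated together (r of replicate differences 0.343 to 0.524 over 12234 genes). The labels do not say that the numbers pair them. The replicate block changed no other member's call and raised the genes called to 6576 from 4942 in LPS against control and to 6333 from 4808 when LPS followed IL-4. Genes called in IL-4 then LPS against LPS were 8, against 119 with DESeq2, 397 with no filter, 281 with the block and 5 with only the groups compared. In IL-4 against control they were 8, against 109, 360 and 288 with the first 3 of these, 4 without control replicate 1 and 4 without control replicate 3, and in the difference of responses 0, against 5, 53 and 1. Leaving out IL-4 replicate 1 gave 3116 called genes for LPS after IL-4. The difference of responses changed sign, uncalled, for Zc3h12c (0.030) and Tnip1 (0.047) with library size alone and for Zc3h12c (0.00997) with the block. Left-out libraries also changed the sign of uncalled values. In IL-4 then LPS against LPS the ranges were -0.83 to 0.17 for Zfp36, -0.25 to 0.88 for Zfp36l2, -0.47 to 0.27 for Zc3h12c, -0.29 to 0.28 for Rc3h1, -0.90 to 0.15 for Irak3 and -0.17 to 0.025 for Cyld. In IL-4 against control they were -0.35 to 0.63 for Zc3h12a, -0.57 to 0.71 for Tnfaip3, -0.90 to 0.47 for Zc3h12c and -0.56 to 0.022 for Tnip1. For the difference of responses they were -1.73 to 1.15 for Zfp36l1, -0.60 to 0.78 for Zc3h12c, -0.97 to 0.31 for Tnfaip3, -0.25 to 0.33 for Tnip1, -0.23 to 0.75 for Zc3h12a, -0.38 to 0.67 for Irak3, -0.086 to 0.52 for Rc3h1 and -0.14 to 0.99 for Zfp36l2. The scalings and DESeq2 were applied to the pathway lists after their values were seen. The cause of these changes was not tested. Depth limits Zfp36l1 in LPS-treated cells, at 1 to 13 reads a library, and the target mRNAs with few reads or none without LPS.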
